A study of Cunninghamia lanceolata with 18 samples.

Results

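The genes described here were the 32 that the study's table of KEGG pathways placed under cutin, suberine and wax biosynthesis, among 46723 genes in the deposited count table. All 32 belonged to the 981 genes of the pink module, so they were chosen by their co-expression over these same libraries as well as by annotation. Of the 32, 28 carried Cula identifiers of the reference annotation and 4 carried NewGene identifiers. Gene names were held for 5 of them, FAR3 (Cula0035785), WSD1 (Cula0011966 and Cula0018958) and CYP86B1 (NewGene_10942 and NewGene_10946), and the others are called by identifier.

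The RNA came from clones C1 and C11 of Chinese fir (Cunninghamia lanceolata), a conifer grown for timber. Apical buds (AB), the phloem of the upper stem next to them (UP) and lateral buds (LB) were sampled. Each of the 6 groups of clone and tissue had 3 libraries, 18 in all, taken from untreated trees of a clonal test forest, and each clone is a single genotype. Clone C1 has the longer internodes and C11 the shorter ones. By the methods, C1 was collected on day 21 and C11 on day 28 from the sprouting of the apical bud, although the order of stages given for the hormone samples is the reverse. The day of collection and the clone cannot be told apart.

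Land plants seal their aerial surfaces with a cuticle, in which a polyester called cutin is filled and covered with waxes, and suberin is a related polyester laid down in bark, roots and wounds. In Arabidopsis, some fatty acids are elongated to very long chains. Such acids are reduced to alcohols by reductases such as FAR3, or hydroxylated at their ends by cytochromes such as CYP86B1 and built into suberin. WSD1 joins fatty acids and alcohols into wax esters. In shoots, cuticle formation is known to be most active in the epidermis of young, expanding organs.

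The libraries held 24766529 to 32005160 counts, and no library repeated another. Levels are given as CPM, the count of a gene scaled to a common library size with TMM factors. CPM does not correct for gene length, so a level is compared only with levels of the same gene. The labels of the tissues were not checked against marker genes, because the count table pairs no identifier with a name.

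The 32 genes were lower in UP than in both buds of both clones. The median ratio of mean AB CPM to mean UP CPM was 8.84 in C1 and 8.03 in C11, and that of LB to UP was 9.56 in C1 and 8.44 in C11. Over all 27174 genes tested, the corresponding medians were 0.979, 0.966, 0.987 and 0.996. Because the genes were chosen by co-expression over all tissues, these ratios are given as a description and were not tested.

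Every AB library lay above every UP library for 22 of the 32 genes in C1, where 11.2% of all genes showed the same, and for 21 in C11, against 6.62% of all genes. Every LB library lay above every UP library for 25 genes in C1 and 25 in C11, against 16.1% and 5.56% of all genes. In bulk tissue, fewer cells of a kind and less RNA per cell cannot be told apart.

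**Figure D1:**
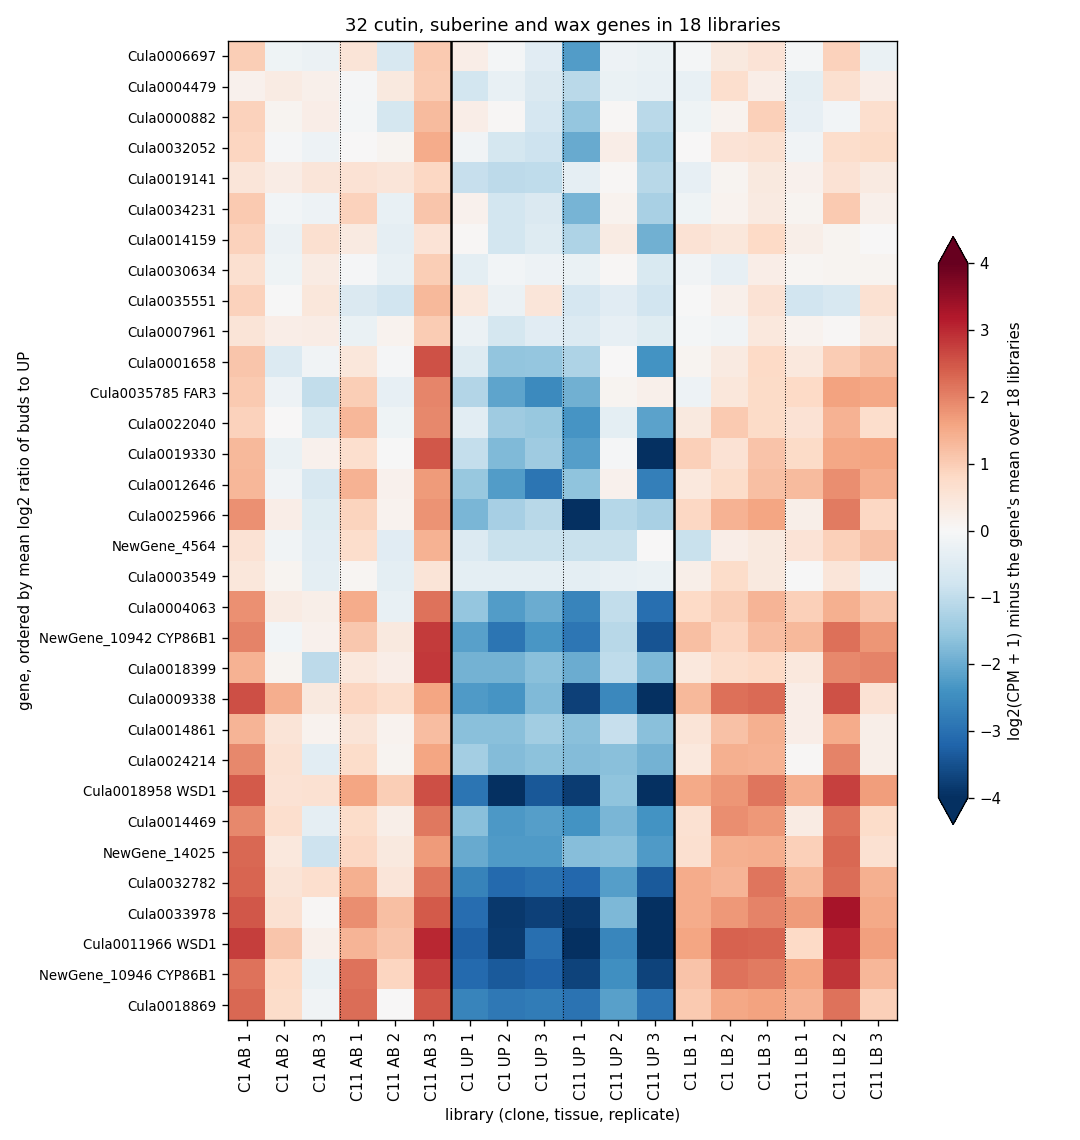
Level of each of the 32 genes (rows) in each of the 18 libraries (columns), as log2(CPM + 1) minus the mean of the gene over all libraries, with colours ending at 4 either way. Rows run from the smallest mean log2 ratio of buds to UP at the top to the largest at the bottom, and the 6 UP columns are the lowest for most genes.

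The size of this difference varied widely within the list. In 14 genes the mean level in each bud exceeded that in UP more than 10-fold in all 4 comparisons of a bud with UP, and in 9 genes the ratio stayed under 4 in all 4. Of the other 9, 2 had ratios between 4 and 10 in all 4 comparisons, and 7 had ratios on both sides of one of these limits. Without UP replicate 2 of C11, described later, the genes over 10-fold in C11 rose from 15 to 21 for AB and from 14 to 20 for LB. The libraries of bud and UP did not overlap in any of the 4 comparisons for 19 genes (1.59% of all genes) and overlapped in all 4 for 4 genes; 76.7% of all genes overlapped or were not above in all 4.

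Among the widest differences was that of Cula0018869. Its AB libraries had 36.6, 11.8 and 5.93 CPM in C1 and 35.2, 6.75 and 41.8 in C11, and its LB libraries 14.9, 21.4 and 22.4 in C1 and 19.0, 33.5 and 13.9 in C11. Its UP libraries had 0.225, 0.0612 and 0.102 CPM in C1 and 0, 0.691 and 0 in C11. The bud level of Cula0018869 was thus 96.1 to 151 times its UP level, and the lowest bud library exceeded the highest UP library. Without UP replicate 2 of C11 it had no UP count in that clone and was at least 493 times higher in AB and at least 391 times higher in LB.

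The 2 CYP86B1 genes are named after the Arabidopsis enzyme that hydroxylates very-long-chain fatty acids at their ends for suberin. NewGene_10946 had 57.0, 21.4 and 9.64 CPM in AB of C1 and 57.7, 22.2 and 84.9 in C11, and 27.2, 57.6 and 53.3 in LB of C1 and 37.2, 92.7 and 31.1 in C11. In UP it had 0.482, 0.245 and 0.373 CPM in C1 and 0, 1.35 and 0 in C11. Its bud means were 80.1 to 125 times its UP means, and its bud and UP libraries were separate throughout.

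The other CYP86B1 gene, NewGene_10942, had 42.8, 9.19 and 11.3 CPM in AB of C1 and 22.4, 13.3 and 74.8 in C11, and 24.4, 18.9 and 24.6 in LB of C1 and 26.1, 49.4 and 36.0 in C11. In UP it had 1.44, 0.459 and 1.19 CPM in C1 and 0.466, 4.11 and 0 in C11. Its ratios of bud to UP, 20.5 to 24.4, were smaller than those of NewGene_10946, and again no bud library of a clone overlapped its UP libraries. The C11 ratios rested on UP replicate 2: without it they were 158 for AB and 159 for LB in NewGene_10942, and at least 971 and at least 948 in NewGene_10946, which then had no UP count.

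The 2 WSD1 genes bear the name of the Arabidopsis enzyme that joins fatty acids and alcohols into wax esters. Cula0011966 had 132, 40.6 and 21.4 CPM in AB of C1 and 48.5, 40.8 and 156 in C11, and 56.4, 97.8 and 95.6 in LB of C1 and 32.5, 158 and 60.0 in C11. In UP it had 1.03, 0.367 and 1.39 CPM in C1 and 0, 2.18 and 0 in C11. The lowest bud library of Cula0011966 was far above its highest UP library, and the ratios of means ran from 69.5 to 115.

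The second WSD1 gene, Cula0018958, had 108, 29.0 and 29.3 CPM in AB of C1 and 58.5, 38.0 and 118 in C11, and 56.1, 66.2 and 86.1 in LB of C1 and 54.0, 131 and 62.2 in C11. In UP it had 1.64, 0.245 and 0.916 CPM in C1 and 0.427, 5.56 and 0 in C11. Its ratios of bud to UP, 35.8 to 74.5, were the smaller of the WSD1 pair in each comparison, and its bud and UP libraries were separate as well. Without UP replicate 2 of C11 the C11 ratios of Cula0018958 were 335 for AB and 386 for LB, and those of Cula0011966 at least 1443 and at least 1472.

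FAR3 (Cula0035785), named after the Arabidopsis reductase that makes primary alcohols of wax, kept a clearer level in UP. It had 37.9, 15.3 and 8.39 CPM in AB of C1 and 35.9, 14.02 and 71.8 in C11, and 15.2, 24.8 and 30.8 in LB of C1 and 31.96, 56.6 and 53.3 in C11. In UP it had 7.38, 3.31 and 2.21 CPM in C1 and 4.001, 19.3 and 20.5 in C11. Its bud means were 2.78 to 5.49 times its UP means, and AB and UP overlapped in C11 only, where 1 AB library with 14.02 CPM lay below 2 UP libraries.

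FAR3 and NewGene_4564 were the 2 genes of the list that the study's table also placed under the peroxisome. NewGene_4564 had 1.78, 0.673 and 0.390 CPM in AB of C1 and 2.00, 0.343 and 3.91 in C11, and 0, 1.25 and 1.43 in LB of C1 and 1.72, 2.58 and 3.20 in C11. In UP it had 0.257, 0 and 0 CPM in C1 and 0, 0 and 0.881 in C11. In C11 UP, the counts of NewGene_4564 thus all came from replicate 3, a library in which 15 of the 32 genes had no count.

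**Figure D2:**
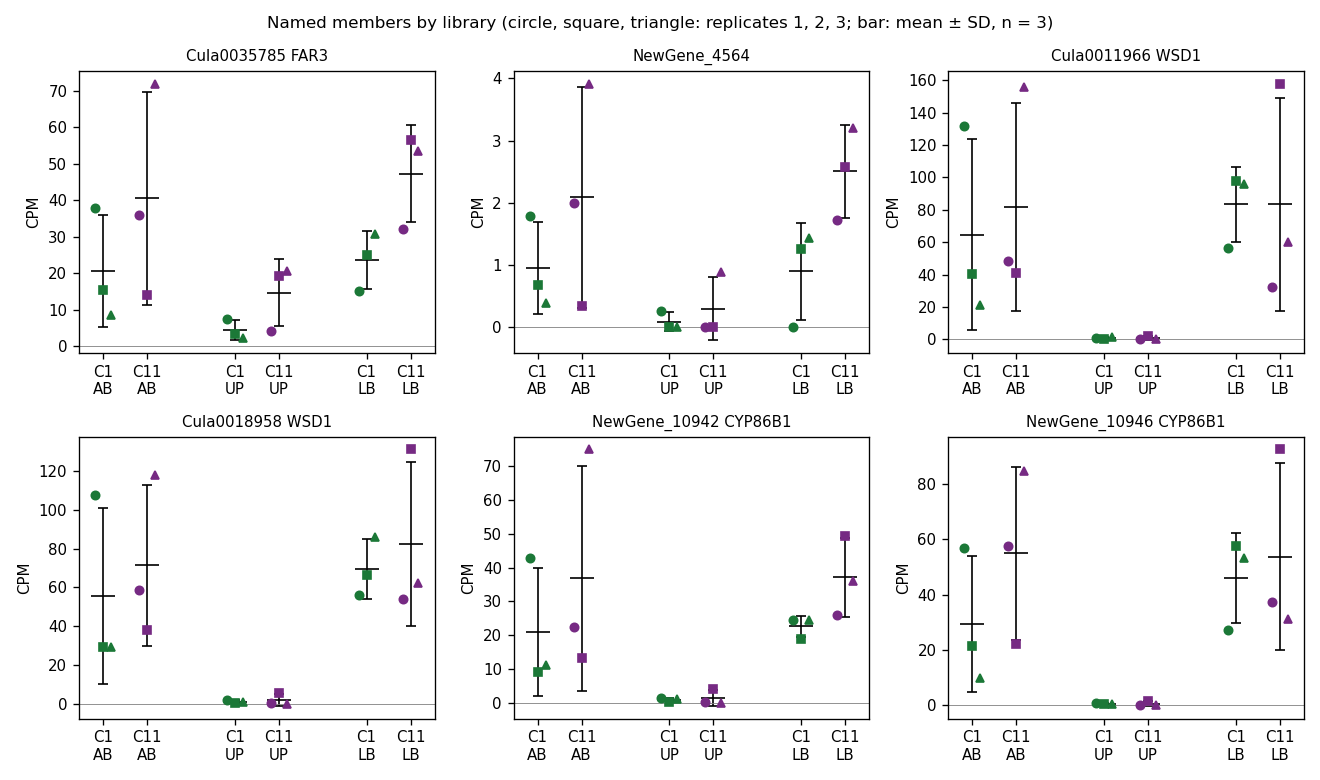
CPM in each library of FAR3, NewGene_4564, the 2 WSD1 genes and the 2 CYP86B1 genes, by clone (green for C1, purple for C11) and tissue; symbols are replicates 1, 2 and 3, and bars are the mean ± SD of 3 libraries. WSD1 and CYP86B1 levels in UP sit near 0, whereas FAR3 reached 19.3 and 20.5 CPM in UP replicates 2 and 3 of C11.

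At the other end of the list were Cula0006697 and Cula0004479. Cula0006697 had 205, 90.4 and 86.6 CPM in AB of C1 and 147, 64.5 and 211 in C11, and 96.1, 134 and 148 in LB of C1 and 97.4, 195 and 85.0 in C11. Its UP libraries had 123, 97.2 and 74.2 CPM in C1 and 20.9, 88.5 and 84.4 in C11. Bud and UP libraries of Cula0006697 overlapped in all 4 comparisons, and its ratios of means were 1.28 to 2.18.

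Cula0004479 had 6.16, 7.11 and 6.44 CPM in AB of C1 and 5.21, 7.34 and 12.0 in C11, and 4.25, 9.29 and 6.65 in LB of C1 and 3.88, 9.07 and 6.72 in C11. Its UP libraries had 2.83, 4.25 and 3.29 CPM in C1 and 2.06, 4.28 and 4.26 in C11. The ratios of 1.86 to 2.31 were small but AB and UP were separate in both clones, while LB and UP overlapped.

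Some further genes stood between these ends. Cula0004063 was 11.7 to 16.6 times higher in buds than in UP, and Cula0012646 was 4.57 to 8.67 times higher. Without UP replicate 2 of C11 their C11 ratios were 73.4 (AB) and 61.6 (LB) for Cula0004063 and 11.1 (AB) and 13.9 (LB) for Cula0012646. Cula0003549 had no count in the 3 UP libraries of C1, so with a floor of 3 counts over the group it was at least 12.3-fold higher in AB and at least 24.5-fold higher in LB. The AB and UP libraries of Cula0003549 overlapped in C1, because AB replicate 3 had no count either. Its bud levels were themselves no higher than 1.16 CPM.

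**Figure D3:**
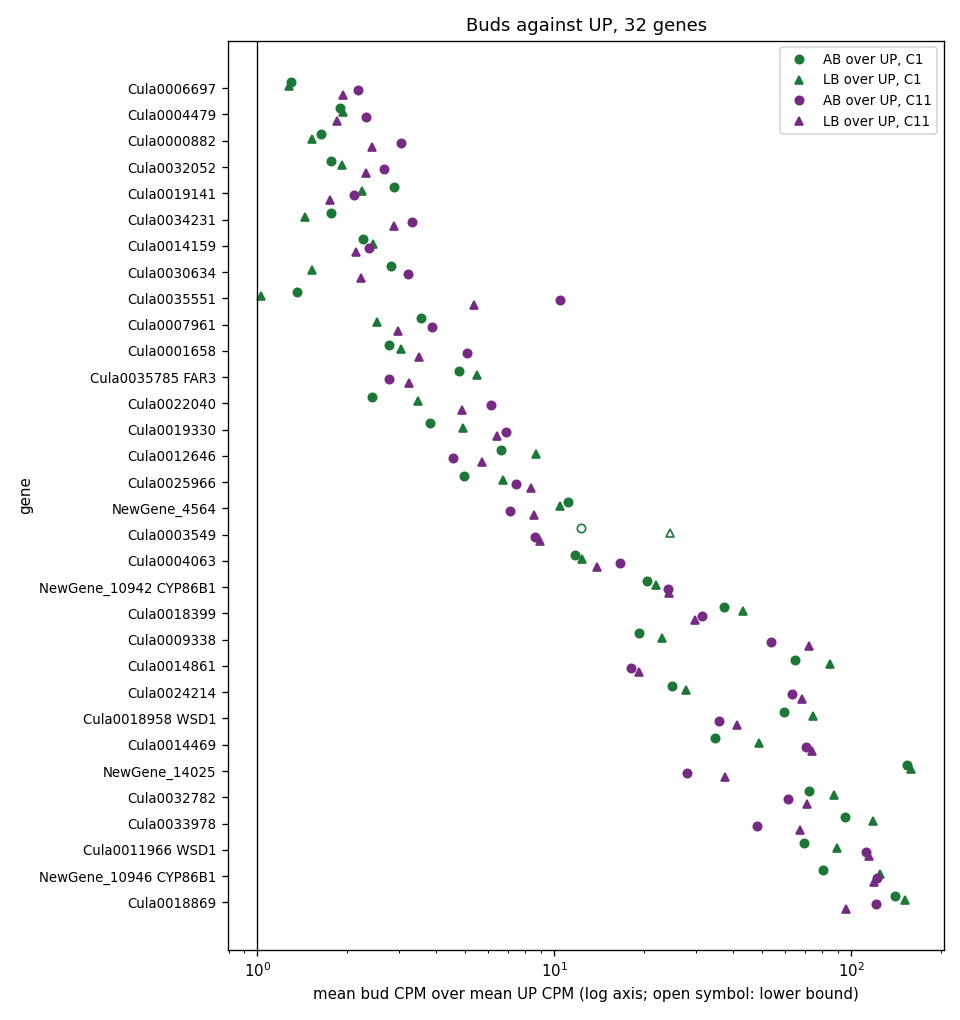
Ratio of mean bud CPM to mean UP CPM for each of the 32 genes on a log axis, with circles for AB, triangles for LB, green for C1 and purple for C11. The ratios run from 1.03 to 159, and open symbols mark the lower bounds of Cula0003549 in C1.

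In C11, UP replicate 2 differed from UP replicates 1 and 3. It was the highest of the 3 for 29 of the 32 genes, against 25.7% of all genes, and only 1 gene had no count there, against 8 genes in replicate 1 and 15 in replicate 3. The exceptions, highest in replicate 3, were FAR3, NewGene_4564 and Cula0003549, the last at 0.0734 against 0.0691 CPM. In the UP libraries of C1, 2, 4 and 3 genes had no count. At 1 CPM or more were 21 genes in replicate 2 of C11, 10 and 11 in its replicates 1 and 3, and 19, 14 and 18 in C1. Which of the C11 libraries is the unusual one was not tested. Gene by gene, ratios are given here without replicate 2 only, not without replicate 1 or 3. Without UP replicate 2, a step added after the data were seen, the median ratio in C11 was 17.4 for AB and 14.3 for LB. Every AB library then lay above both remaining UP libraries for 26 genes (12.1% of all genes) and every LB library for 30 (9.9% of all genes).

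Ratios of other lipid genes of the module, listed in the same table, were smaller for some lists and not for others. Over the genes with counts in UP, the median ratio of bud to UP was 6.60 to 8.67 for the cutin, suberine and wax list. It was 2.64 to 4.12 for the 15 genes of fatty acid elongation, which supplies very-long-chain precursors, and 1.59 to 2.03 for the 10 genes of fatty acid biosynthesis. For the 18 genes of sphingolipid metabolism it was 8.07 to 9.40, above the cutin, suberine and wax list in all but LB of C11. Only 16 of those 18 had counts in UP of C11 and entered its medians. For the other 949 genes of the module it was 1.53 to 1.94, over 926 genes in C1 and 903 in C11. These lists were all drawn from the module, and the differences between them were not tested.

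Some genes of the module that the study named for the cuticle or for very-long-chain fatty acids lie outside the 32. The At5g33370 homolog (Cula0009363), in Arabidopsis a GDSL lipase-like enzyme that polymerises cutin, was 9.73 to 22.2 times higher in buds than in UP. It had 243, 1780 and 19 counts in UP replicates 1, 2 and 3 of C11. DCR (Cula0008822), an Arabidopsis acyltransferase needed for cutin, differed by 2.23 to 3.28 times. ABCG11 (Cula0028169), the Arabidopsis exporter of cutin and wax lipids, differed by 2.97 to 4.14 times and ABCG39 (Cula0002596) by 2.30 to 3.97 times.

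The identifier Cula0017116 was given 2 names by the study, CER2 and SLAC1, so which gene it stands for is not settled. It was 5.54 to 18.03 times higher in buds, from a UP level of 0.109 CPM in C1 and 0.0806 CPM in C11. All 7 counts of Cula0017116 in UP of C11 came from replicate 2. Of the elongation enzymes, KCS1 (Cula0031243), the ketoacyl-CoA synthase of the first step, was 20.5 to 41.4 times higher in buds, and ECR (Cula0015187), the enoyl-CoA reductase of the last step, 1.76 to 2.62 times.

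The next question was whether the clones differed within a tissue. In AB, 0 of the 32 genes passed a fold change of 2 with an adjusted p (FDR) under 0.05 in edgeR's quasi-likelihood test, where 4.55% of all genes did. None of the 32 had an unadjusted p under 0.05, against 17.9% of all genes, and DESeq2 called 0 as well, against 10.9% of all genes. The log2 fold change of C1 over C11 was below 0 for 25 of the 32, against 51.4% of all genes, with a median of -0.34 against -0.02 over all genes.

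That direction in AB rested on single libraries. Without C11 replicate 3, the fold change was below 0 for 9 genes and the median was 0.22. Without C1 replicate 1 it was below 0 for 31 genes and the median was -1.15. No gene of the 32 had AB libraries of the clones that did not overlap, against 25.4% of all genes.

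The lowest p in AB belonged to Cula0022040 and Cula0001658. Cula0022040 had 314, 168 and 109 CPM in C1 and 421, 148 and 628 in C11, a log2 fold change of -1.03 ± 0.60 (SE) with an edgeR adjusted p of 0.434 (0.183 to 0.707 over the alternatives). Cula0001658 had 228, 70.7 and 94.5 CPM in C1 and 143, 102 and 610 in C11, a log2 fold change of -1.14 ± 0.78 with an edgeR adjusted p of 0.515 (0.311 to 0.955). In both genes the clones overlapped and 1 library of C11, replicate 3, was the highest of all 6.

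In the other tissues the 2 genes overlapped between the clones as well. Cula0022040 had 123, 61.5 and 57.4 CPM in UP of C1 and 31.8, 127 and 36.7 in C11, and 216, 346 and 281 in LB of C1 and 248, 442 and 270.0 in C11. Cula0001658 had 72.0, 34.1 and 35.4 CPM in UP of C1 and 43.9, 105 and 18.9 in C11, and 113, 135 and 183 in LB of C1 and 141, 210.0 and 239 in C11. In UP, replicate 2 of C11 was the highest library for both.

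The named genes were lower in C1 in AB by their means, and each overlapped between the clones. FAR3 averaged 20.6 ± 15.4 CPM (SD, n = 3) in C1 and 40.6 ± 29.2 in C11. The log2 fold change was -0.998 ± 0.73 for FAR3, -0.92 ± 0.73 for NewGene_10946, -0.82 ± 0.83 for NewGene_10942, -0.36 ± 0.79 for Cula0011966 and -0.39 ± 0.65 for Cula0018958. The spread between libraries of a clone was about as large as the difference or larger.

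In LB, 0 of the 32 genes were called by edgeR, against 4.27% of all genes, and DESeq2 called 0, against 13.3%. An unadjusted p under 0.05 was found for 3 genes, FAR3, Cula0012646 and NewGene_10942, against 20.8% of all genes. The log2 fold change was below 0 for 22 of the 32 (50.8% of all genes), with a median of -0.19 against -0.01. Without C11 replicate 2 it was below 0 for 11 genes and the median was 0.22, and without C1 replicate 1 for 14 genes with a median of 0.02. The clones did not overlap for 5 of the 32 genes, against 28.5% of all genes.

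FAR3 in LB averaged 23.6 ± 7.85 CPM (SD, n = 3) in C1 and 47.3 ± 13.4 in C11. Each C1 library was below each C11 library, though the highest of C1, 30.8 CPM, was close to the lowest of C11, 31.96 CPM. The log2 fold change was -1.003 ± 0.35 (SE), with an edgeR p of 0.0256 and an adjusted p of 0.179 (0.0879 to 0.405 over the alternatives). With the replicate number as a block, which the LB libraries followed, the adjusted p was 0.0957, and 0 of the 32 genes and 2.17% of all genes were called.

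Cula0012646 had 42.8, 52.8 and 74.8 CPM in LB of C1 and 77.5, 118 and 88.5 in C11. The libraries of the clones were just separate, and the log2 fold change was -0.74 ± 0.29 with an edgeR adjusted p of 0.216 (0.150 to 0.552). It had 81.1, 28.6 and 20.1 CPM in AB of C1 and 85.03, 36.1 and 105 in C11, and 10.4, 5.91 and 3.33 in UP of C1 and 9.71, 36.02 and 3.89 in C11, and the clones overlapped in both. For the CYP86B1 gene NewGene_10942 the LB value was -0.72 ± 0.29, with an edgeR adjusted p of 0.228 (0.158 to 0.708). The other CYP86B1 gene, NewGene_10946, had a log2 fold change of -0.23 ± 0.50, and the WSD1 genes Cula0011966 and Cula0018958 had -0.0042 ± 0.58 and -0.25 ± 0.39.

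NewGene_4564 also did not overlap in LB, at 0.895 ± 0.780 CPM (SD, n = 3) in C1 and 2.503 ± 0.744 in C11, with a log2 fold change of -1.47 ± 1.19 and an edgeR adjusted p of 0.505 (0.370 to 0.652). Cula0014159 went the other way and had the higher level in all 3 C1 libraries, 4.66, 4.22 and 5.62 CPM against 3.49, 3.08 and 2.85 in C11. Its log2 fold change was 0.62 ± 0.31, and its edgeR adjusted p was 0.314 (0.204 to 0.728). The 5 genes without overlap thus comprised 4 lower in C1 and 1 higher.

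In UP, 22 of the 32 genes had enough counts to be tested, and the 10 left out included 8 of the 14 genes with more than 10-fold higher levels in every bud comparison. Of the 22, edgeR called 0, against 3.94% of all genes. An unadjusted p under 0.05 was found for 2 of them, FAR3 and Cula0035551, against 19.8% of all genes, and DESeq2 called 1, Cula0035551, against 12.3% of all genes. The log2 fold change was below 0 for 10 of the 22 (53.9% of all genes), with a median of 0.04 against -0.06.

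UP replicate 2 of C11 decided this median. Without it, the fold change was below 0 for 3 of 22 genes (53.9% of all genes), and the median was 1.41 against -0.08 over all genes. An unadjusted p under 0.05 was found for 9 of the 22, a count whose share over all genes was not taken for this fit. The replicate left out was singled out by the values of these same genes, so that count is not read as a result about them. Again edgeR called 0 of the 22, where it called only 17 of 25045 genes. The clones did not overlap in UP for 2 genes, Cula0035551 and Cula0009338, against 30.9% of all genes.

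FAR3 averaged 4.30 ± 2.73 CPM (SD, n = 3) in UP of C1 and 14.6 ± 9.20 in C11. The log2 fold change was -1.81 ± 0.74 (SE), with an edgeR p of 0.0497 and an adjusted p of 0.251 (0.103 to 0.560 over the alternatives). The clones overlapped, as C11 replicate 1, at 4.001 CPM, lay within the range of C1. In all 3 tissues the fitted log2 fold change of FAR3 was below 0, also with each library left out in turn, at -1.78 to -0.30 in AB, -2.43 to -1.48 in UP and -1.26 to -0.74 in LB, and in no tissue was FAR3 called. The study listed FAR3 as lower in C1 in UP and LB, at a looser FDR limit than the one used here. DESeq2 here gave an adjusted p of 0.0879 in LB, within that limit, and 0.103 in UP, outside it.

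Cula0035551 had 1.32, 0.459 and 1.39 CPM in UP of C1 and 0.0777, 0.242 and 0 in C11, all C1 libraries being higher. Its log2 fold change was 3.20 ± 1.09, with an adjusted p of 0.186 in edgeR and 0.0487 in DESeq2, and the range over the alternatives was 0.0487 to 0.443. In AB it had 2.27, 0.705 and 1.33 CPM in C1 and 0.151, 0 and 3.20 in C11, and in LB 0.708, 0.970 and 1.58 in C1 and 0, 0.0993 and 1.62 in C11. In the buds, replicate 3 of C11 was the highest of the 6 libraries, and the clones overlapped. Cula0009338, the other gene without overlap in UP, had a log2 fold change of 2.08 ± 1.35 and an edgeR adjusted p of 0.442 (0.122 to 0.700).

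**Figure D4:**
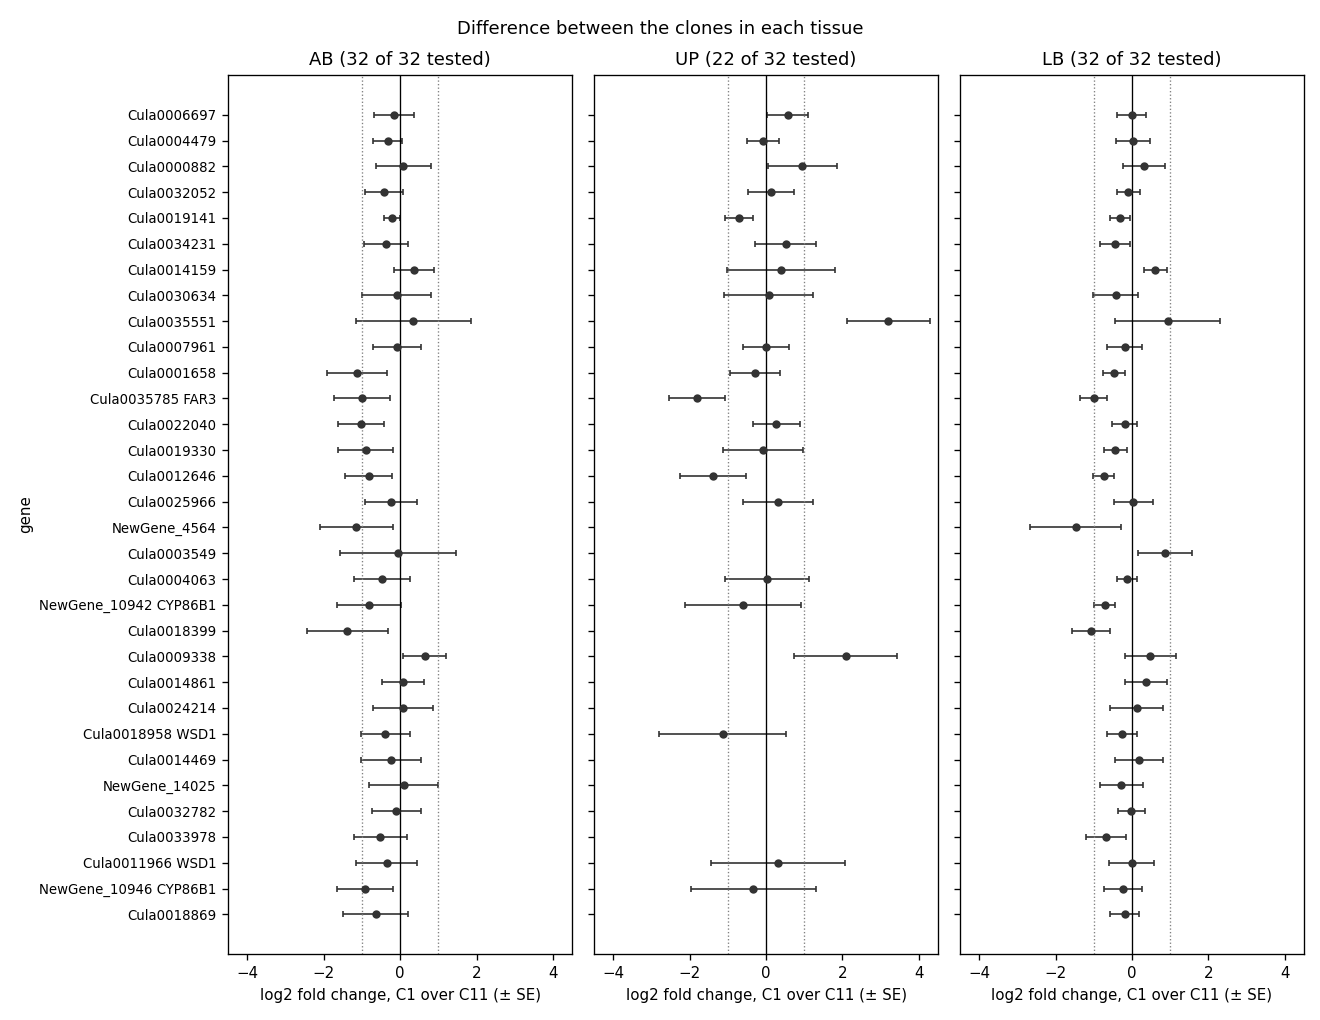
Log2 fold change of C1 over C11 from edgeR for each of the 32 genes in AB, UP and LB, with the standard error as bars and dotted lines at a fold change of 2. Genes not tested in UP have no point, and no point shown passed the thresholds.

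Outside the 32, none of the genes named above for the cuticle or for elongation was called in a tissue by edgeR or, where it gave a value, DESeq2. Cula0017116 (CER2 or SLAC1) in LB had the lowest adjusted p among them, with 0.606 ± 0.170 CPM (SD, n = 3) in C1 and 1.45 ± 0.176 in C11, a log2 fold change of -1.26 ± 0.43 and an edgeR adjusted p of 0.174 (0.0793 to 0.520). The study listed it as lower in C1 in LB at its looser FDR limit, within which the DESeq2 adjusted p of 0.0793 lies. In the elongation and fatty acid biosynthesis lists edgeR and DESeq2 called no gene in any tissue. An unadjusted p under 0.05 was found for no elongation gene, with 12 of the 15 tested for UP and all 15 for either bud. Of the biosynthesis genes it was found for 1 of 10 in LB, 0 of 10 in AB and 0 of 9 in UP, against the shares of all genes given above. Of the sphingolipid genes, edgeR called 0 and DESeq2 called 1 of 17 in LB, and the unadjusted p was under 0.05 for 0 of 17 in AB, 1 of 14 in UP and 2 of 17 in LB. Their log2 fold change was below 0 for 14 of 17 in AB, 13 of 14 in UP and 14 of 17 in LB.

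Whether the clone difference itself changed between tissues was tested in a fit of all 18 libraries. For UP minus AB, UP minus LB and LB minus AB, edgeR called 0 of the 32 genes, where it called 0.00736%, 0.011% and 0% of all genes. None of the 32 had an unadjusted p under 0.05 in any of the 3, against 3.33%, 3.14% and 1.55% of all genes. DESeq2 called 0 of the 32 in each, against 0.121%, 0.142% and 0.0464% of all genes. The median of the 32 was 0.25, 0.13 and 0.25. With replicate within clone as a block it was 0.65, 0.16 and 0.63, where the medians over all genes were 0.042, 0.0080 and 0.045. The block fit called 0 of the 32 and 0% of all genes in each. Without C11 replicate 2 in all tissues and without the block, 14 genes had an unadjusted p under 0.05 in UP minus AB (7.96% of all genes). In UP minus LB there were 6 (7.32% of all genes). Again edgeR called 0 of the 32, where it called 8 of 27886 genes in each. C11 replicate 2 was singled out by the values of these same genes. It was the highest of C11 UP for 29 of the 32 and the lowest of C11 AB for 29. Leaving it out moves UP minus AB upward for the list, so these counts are not read as a result. The medians of UP minus AB, UP minus LB and LB minus AB were 2.51, 1.66 and 0.92 without C11 replicate 2. Without C11 replicate 3 they were -0.80, -0.37 and -0.50, so their sign depended on the replicate left out.

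The buds were also compared with each other. For LB against AB, edgeR and DESeq2 called 0 of the 32 genes in C1 and in C11, where edgeR called 0.00368% and 0% of all genes and DESeq2 0.0884% and 0.00855%. None of the 32 had an unadjusted p under 0.05, against 1.97% of all genes in C1 and 3.1% in C11. The log2 difference of LB over AB was above 0 for 24 genes in C1 (50.3% of all genes), with a median of 0.14, and for 14 in C11 (48.3%), with a median of -0.08. In C11, same-numbered AB and LB libraries deviated together over all genes tested. The 32 genes did not follow this, as replicate 2 was the lowest in AB for 29 of them and the highest in LB for 23. With a replicate block, and again 0 calls (0% of all genes), the difference was above 0 for 5 genes (44.2%), with a median of -0.30. Without AB replicate 3 of C11 and without the block, it was above 0 for 31 genes in C11 and the median was 0.68. Without AB replicate 2 or LB replicate 2 of C11 it was above 0 for 3 genes each, with medians of -0.42 and -0.46. In C1 it was above 0 for 28 genes without AB replicate 1 (median 0.99) and for 12 without AB replicate 3 (median -0.11).

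Libraries of the same clone and tissue differed for the list as a whole. In AB of C1, replicate 1 was the highest of the 3 for 31 of the 32 genes, against 36.1% of all genes. In AB of C11, replicate 3 was the highest for all 32, against 38.3%, whereas replicates 1 and 2 were the highest for 29.7% and 31.9% of all genes. Replicate 2 of that group was the lowest for 29 of the 32, against 32.9% of all genes. The named WSD1 gene Cula0011966 spanned 21.4 to 132 CPM among the C1 AB libraries and 40.8 to 156 among those of C11. In LB, replicate 3 of C1 was the highest for 25 genes (33.5% of all genes) and replicate 2 of C11 for 23 (34.0% of all genes).

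A level for the list was formed as the mean over the 32 genes of log2(CPM + 1), each gene centred on its 6 libraries of a tissue. In AB it was 0.72, -0.47 and -0.77 in C1 and 0.08, -0.60 and 1.05 in C11. In UP it was 0.32, -0.11 and -0.01 in C1 and -0.51, 0.74 and -0.44 in C11, and in LB -0.41, 0.03 and 0.24 in C1 and -0.38, 0.57 and -0.04 in C11. The clones overlapped in every tissue, and AB held the widest range.

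The other module genes moved with these libraries. The 949 other genes of the module stood at 0.33, -0.09 and -0.33 in AB of C1 and -0.03, -0.35 and 0.48 in C11 on the same scale. The 15 elongation genes stood at 0.56, -0.33 and -0.76 in C1 and 0.22, -0.73 and 1.04 in C11. In UP, replicate 2 of C11 was the highest library for these lists too, at 0.25 and 0.74. What set these libraries apart was not tested.

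**Figure D5:**
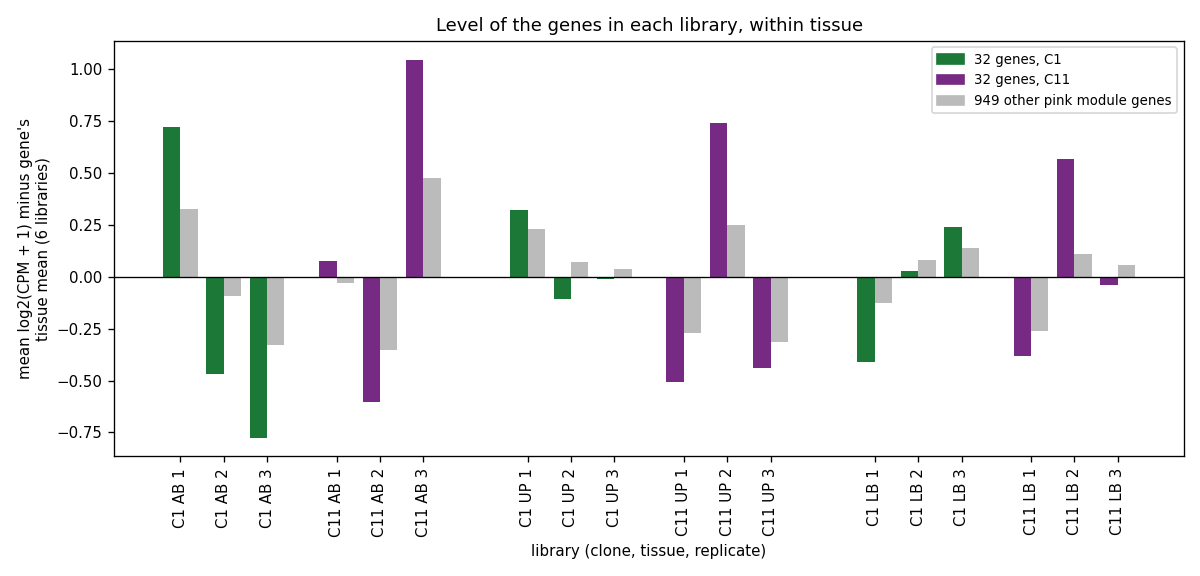
Mean of log2(CPM + 1) over the 32 genes in each library, each gene centred on its 6 libraries of the tissue (green for C1, purple for C11), beside the same for the 949 other genes of the module (grey). The highest bars are AB replicate 1 of C1 at 0.72, AB replicate 3 of C11 at 1.05, UP replicate 2 of C11 at 0.74 and LB replicate 2 of C11 at 0.57.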

How the data were processed

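Gene counts of 18 RNA-seq libraries (3 per clone and tissue) were used as deposited. Before deposit, the authors mapped read pairs to the Chinese fir genome with Hisat2 2.0.4 and made raw, whole-number counts for 46723 genes. Which program counted, whether strand was used and how multi-mapping reads were handled is not given in the sources used here, so counts of near-identical copies, such as the genes sharing the names WSD1 or CYP86B1, may be split or shared. The table held 0 columns that belong to no sample. Libraries were grouped by the clone and tissue of their labels.

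C1 and C11 were compared within each tissue on its 6 libraries with edgeR 4.0.16 (limma 3.58.1, R 4.3.3): TMM scaling, filterByExpr, the quasi-likelihood test and Benjamini-Hochberg adjustment over all genes tested. A call needed a 2-fold change or more together with an FDR below 0.05. The SE printed with an edgeR log2 fold change is its absolute value divided by the square root of the test's F value. It was not taken from the fit directly and is unstable where the fold change is close to 0. Differences between tissues were fitted on all 18 libraries with 6 groups. CPM used the TMM factors, and ratios of bud to UP are of mean CPM without a pseudocount. The fits were checked on simulated counts. Figures were drawn with Python and matplotlib.

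Alternatives were DESeq2 1.42.0, RLE size factors, no filter, a filter at 1 CPM in 3 libraries, a fit of all 18 libraries, a block for replicate number, pseudocounts (0.1 and 5), and leaving out single libraries. As a check of pairing, deviations from group means of same-numbered C1 and C11 libraries correlated at 0.257 to 0.397 in LB, all over 0.1, but at -0.191 to 0.126 in AB and -0.148 to 0.0949 in UP. For pairs of tissues of 1 clone they correlated at 0.101 to 0.488 (AB and UP, C1), 0.244 to 0.405 (AB and UP, C11), 0.457 to 0.658 (UP and LB, C11) and 0.476 to 0.739 (AB and LB, C11), but not all over 0.1 for LB of C1. What the numbers stand for is not stated. The study describes the libraries as biological replicates, so p-values measure the spread between them.

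The members, the lists and the tests were chosen with earlier results of these data known. Values in every library are given for the 5 named genes and NewGene_4564, for the 2 genes of lowest p in each tissue, for genes called by edgeR or DESeq2, and for the 2 highest and 2 lowest mean log2 ratios of bud to UP. LB values of Cula0014159 were added after they were seen.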

Additional observations from a re-analysis of the deposited data

How the results depend on the processing

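No gene of the list was called by edgeR between the clones within a tissue under any alternative run, nor, under RLE size factors, the block or the libraries left out, in the comparisons of clone effects or of LB with AB, for which no other filter was run. Several runs called few genes of any kind, so 0 calls among the 32 says little there. With the block edgeR called 0 of 23999 genes in AB and 0 of 24167 in UP. Without single C1 libraries it called 0, 0 and 9 genes in UP and 7, 9 and 7 in LB. The only call was that of DESeq2 in UP, 1 gene, Cula0035551, at a log2 fold change of 3.26. Under a replicate block the median in UP was 0.96, and 3 of the 5 named genes turned above 0 in UP, to 1.16 for Cula0018958, 1.19 for NewGene_10942 and 2.17 for NewGene_10946, while Cula0011966, already above 0, moved to 3.44 and FAR3 stayed at -1.80. Cula0011966 in LB, at about 0, was 0.26 with the block and 0.012 without a filter. The block changed no other call.

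Leaving out single libraries, the median log2 fold change of C1 over C11 ran from -1.15 to 0.22 in AB, -0.39 to 1.41 in UP and -0.37 to 0.22 in LB. In AB it ran from -1.40 to 0.52 for Cula0011966, -1.30 to 0.18 for Cula0018958, -1.85 to 0.22 for NewGene_10942 and -1.79 to 0.085 for Cula0001658. In UP it ran from -0.28 to 7.75 for Cula0011966, -1.80 to 2.05 for Cula0018958, -1.19 to 2.07 for NewGene_10942 and -0.92 to 6.42 for NewGene_10946. In LB it ran from -0.42 to 0.86 for Cula0011966, -0.51 to 0.26 for Cula0018958 and -0.51 to 0.43 for NewGene_10946. The upper ends came without C11 replicate 3 in AB and without C11 replicate 2 in UP and LB. The values 7.75 and 6.42 are set against C11 libraries with 0 counts, so their size depends on the prior count of the fit.

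A pseudocount of 5 CPM lowered the median log2 ratio to UP to 1.31 (AB) and 1.55 (LB) in C1 and to 1.52 (AB) and 1.64 (LB) in C11. Leaving out each replicate number of a clone gave 2.28 to 3.06 (AB) and 2.64 to 3.95 (LB) in C1, and 2.55 to 4.498 (AB) and 2.82 to 3.96 (LB) in C11. Low counts limit UP: 10 of the 32 genes were not tested there, and a level under 1 CPM rests on few reads.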
